A study of Homo sapiens with 3 samples.

Results

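The expressed members of the numbered ZNF gene family were described in OCI-AML2 R50 cells with and without romidepsin. The deposited tables hold 465 symbols of this form (ZNF, a number and at most 1 letter). The 150 genes described here are those that reached 5 FPKM (fragments per length of transcript and per number of mapped fragments) in at least 1 of the 3 libraries. They stand among 25247 named symbols in all, of which 9079 reached that level. OCI-AML2 is an established acute myeloid leukaemia (AML) cell line, and R50 names the culture grown with cytarabine at 50 µM and 15% serum, which the labels give for all 3 libraries. Romidepsin, an inhibitor of class I histone deacetylases (HDACs), was given for 18 h in 2 libraries, and 1 library was labelled as control. The labels do not say whether the romidepsin libraries came from separate cultures, nor do they give a dose, so the spread between them may be technical. All values come from 1 line, and in bulk RNA a change in the share of cells that express a gene and a change in RNA per cell cannot be told apart.

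Most numbered ZNF genes encode proteins with C2H2 zinc fingers, small folds held by a zinc ion that read DNA or RNA bases. A large subgroup also carries a KRAB box, which binds the corepressor TRIM28 (KAP1). TRIM28 in turn brings the histone methyltransferase SETDB1, heterochromatin proteins and the HDAC-containing NuRD complex to the DNA, and this system silences transposable elements and keeps imprinted genes marked. Many of these genes lie side by side in clusters, above all on chromosome 19. Others have no KRAB box and work as promoter-bound activators, cofactor adaptors, RNA-binding proteins or ribosome factors.

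The members were chosen by their FPKM level in the same libraries that are compared. Of the 150 genes, 109 reached 5 FPKM in the control and in at least 1 romidepsin library, 30 in the control alone and 11 in romidepsin libraries alone. The last 2 sets had to differ between the groups, so no p-value is given for a member and the counts below are descriptions. Just inside the limit were ZNF266, ZNF398 and ZNF276, whose highest library had 5.05, 5.09 and 5.11 FPKM. Just outside were ZNF260, ZNF268 and ZNF134, with 4.99, 4.93 and 4.90 FPKM. Of the other numbered ZNF symbols, 175 peaked from 1 to under 5 FPKM, 70 peaked above 0 but under 1 FPKM, and 70 were listed at 0 in all 3 libraries.

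From the smallest steps between FPKM values, which another annotation's transcript lengths blur, the libraries held about 20100000 and 20500000 fragments after romidepsin and 18500000 in the control. At 5 FPKM, a transcript of the members' median length (3233 bases) then corresponds to 325 and 331 fragments after romidepsin and 299 in the control, a counting SD of 5.55%, 5.49% and 5.78%. Differences are given as log2(FPKM + 1), romidepsin minus control, a scale that understates the change of low values. Over the members, the difference between the 2 romidepsin libraries had an SD of 0.0857, and no member was 2-fold apart between them. All 8 listed markers of myeloid AML cells were expressed, summing to 4561 and 4506 FPKM after romidepsin and 8319 FPKM in the control. They did not move alike. PTPRC was higher after romidepsin (96.7 and 95.9 against 71.3 FPKM). All the others were lower, from CD33 (28.8 and 28.1 against 32.4 FPKM) to CTSG (467.6 and 460.5 against 1422 FPKM). Of 8 markers of other cell types, 3 reached 1 FPKM in any library, and the 8 summed to 18.9 and 18.9 FPKM after romidepsin and 8.56 FPKM in the control. EPCAM, KRT19, MS4A1 and HBB were at 0 in every library. COL1A1, a fibroblast collagen gene, had 2.30 and 2.55 FPKM after romidepsin and 0.0275 FPKM in the control, and PECAM1, which myeloid cells also express, had 15.97 and 15.3 FPKM after romidepsin and 8.23 FPKM in the control. The part of these markers in the results was not tested.

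Small decreases were the common pattern among the 150 genes. In 101 of them (67.3%) both romidepsin libraries lay below the control, in 41 (27.3%) both lay above it, and in 8 the control lay between them. Over all genes that reached 5 FPKM, these shares were 56.7% below and 39.4% above. The median difference of the members was -0.27, beside -0.12 for all genes that reached 5 FPKM and -0.05 for all 11708 genes tested. The sizes were modest, with 105 members less than 0.5 from the control, 39 at -0.5 or lower and 6 at 0.5 or higher. When every library was given an equal sum of FPKM, all genes shifted by 0.21, and the medians became -0.062 for the members and 0.11 for all genes at 5 FPKM.

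Summed over the 150 genes, the level was 1655 and 1645 FPKM in the romidepsin libraries and 1962 FPKM in the control. The sums over all named symbols were lower after romidepsin as well, at 520552 and 517923 FPKM against 613768 FPKM in the control. Nothing particular to the members is therefore read from their sums. One row dominates the members' sums. The symbol ZNF833P, given to a pseudogene, had 127.8 and 123.5 FPKM after romidepsin and 159.2 FPKM in the control, and nearly all of it came from 1 of its 2 rows in the tables. The other row had 0.672 and 0.754 FPKM after romidepsin and 0.667 FPKM in the control, so whether the abundant row measures the pseudogene or another transcript cannot be told from the files. Without it the sums were 1528 and 1521 FPKM after romidepsin and 1803 FPKM in the control. The middle member stood at 7.15 and 7.12 FPKM after romidepsin and 8.28 FPKM in the control, so the family is one of many low transcripts with a few abundant ones.

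**Figure D1:**
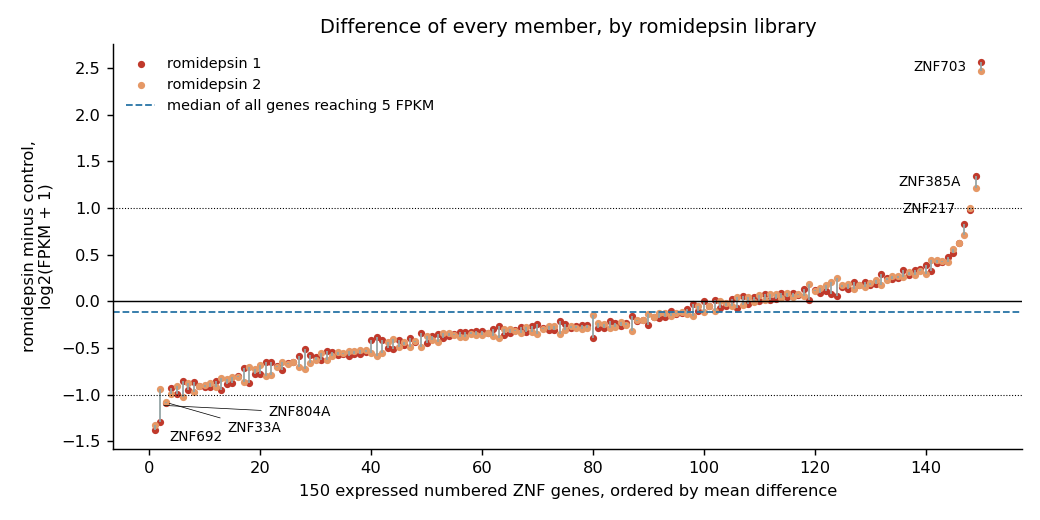
Difference of each of the 150 genes on the log2(FPKM + 1) scale, romidepsin minus control, with 1 point per romidepsin library and genes ordered by their mean difference. Dotted lines mark 2-fold and the dashed line the median of all genes reaching 5 FPKM (-0.12). Most points lie below 0, and ZNF703 stands alone at the top at 2.51.

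With limma fitted over all 11708 genes (adjusted p under 0.05), 26 of the 150 members (17.3%) were called higher and 92 (61.3%) lower, while 32 were not called. The same fit called 34.7% of all genes tested higher and 41.8% lower, and 31.9% and 48.5% of the genes that reached 5 FPKM; in either direction these are 76.5% of all genes tested and 80.4% of those at 5 FPKM. As the choice of members used these libraries, nothing is read from the members' shares. All 30 members that reached 5 FPKM in the control alone were called lower, and 10 of the 11 that reached it in romidepsin libraries alone were called higher, directions that the choice of members fixed. Among the 103 members at 5 FPKM or more in every library, 16 were called higher and 57 lower, with a median of -0.24. The split depended on the scale: with equal library sums, 49 members were called higher and 50 lower (4306 and 2786 of the genes at 5 FPKM), and with quantile normalization 18 and 89 (3156 and 3543).

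Few members differed by a large factor, and how many depends on the scale. On log2(FPKM + 1), where the added 1 makes a 2-fold difference harder to reach for low genes, 2 of 150 were at least 2-fold higher in both romidepsin libraries, beside 6.19% of all genes at 5 FPKM and 7.43% of all genes tested. Another 2 were at least 2-fold lower in both, beside 3.73% and 3.08%. In either direction that is 2.67% of the members, beside 9.92% of the genes at 5 FPKM and 10.5% of all genes tested. By the plain FPKM ratio, chosen after seeing the data, 3 members (2.0%) were at least 2-fold higher in both libraries, beside 7.21% of the genes at 5 FPKM. Another 9 (6.0%) were at least 2-fold lower, beside 4.86%, so the members were not fewer on that side. In either direction the shares were 8.0% and 12.1%. Of those 9, 8 are members through the control alone, so their direction was fixed by the choice, and likewise 1 of the 3 through romidepsin alone. The 9 are ZNF692, ZNF33A, ZNF804A, ZNF296, ZNF37A, ZNF532, ZNF74, ZNF16 and ZNF587B.

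ZNF703 and ZNF385A were the 2 that were higher on the log2(FPKM + 1) scale; folds given for single genes are plain ratios of FPKM, with the mean of the romidepsin libraries. ZNF703, a corepressor of the NET family known as an oncogene of luminal breast cancer, had 19.5 and 18.2 FPKM after romidepsin and 2.48 FPKM in the control, a 7.61-fold difference. Both romidepsin libraries stood far above the control, and the gene is a member only through them. ZNF385A, also called HZF, encodes an RNA-binding finger protein that also binds p53. It had 59.8 and 54.8 FPKM after romidepsin and 22.98 FPKM in the control, a 2.50-fold difference. ZNF217, an oncogene whose product works with the CoREST and LSD1 corepressor, was over 2-fold higher in both libraries by plain ratio but just short of 1 on the log2(FPKM + 1) scale in 1 of them. It had 27.3 and 27.7 FPKM after romidepsin and 13.4 FPKM in the control (log2 difference 0.99).

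ZNF692 and ZNF33A were the 2 that were lower on the log2(FPKM + 1) scale. ZNF692, described as a protein that binds the AICAR response element, had 11.98 and 12.5 FPKM after romidepsin and 32.8 FPKM in the control, where it was 2.68 times as high. ZNF33A, a KRAB protein gene, had 2.86 and 2.90 FPKM after romidepsin and 7.21 FPKM in the control, where it was 2.50 times as high. ZNF804A, known from genetic studies of psychiatric risk, had the second lowest mean difference (-1.11) and was over 2-fold lower in both libraries by plain ratio, though not on the log2(FPKM + 1) scale. Its romidepsin libraries, at 2.87 and 3.96 FPKM against 8.46 FPKM in the control, differed more from each other than those of any other member (0.36 on the log2 scale), and its call was lost with no filter on low values. ZNF232 had the next largest gap within the pair, with 18.4 and 21.8 FPKM after romidepsin and 24.3 FPKM in the control.

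**Figure D2:**
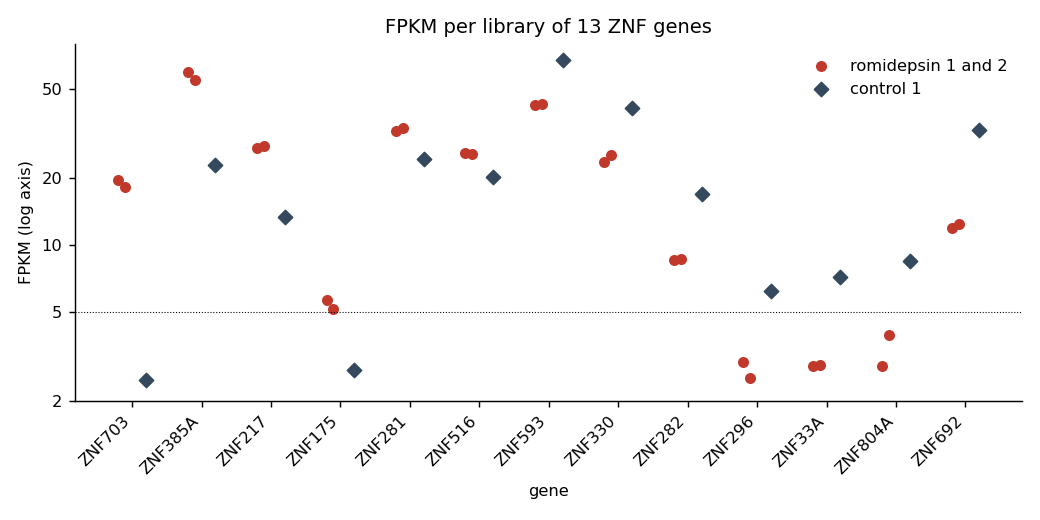
FPKM on a log axis of 13 ZNF genes, with 2 circles for the romidepsin libraries and a diamond for the control library; the dotted line marks 5 FPKM. The control lies below both romidepsin libraries in the 6 genes on the left and above both in the 7 on the right.

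Promoter sequences of 3 of these genes, ZNF692, ZNF33A and ZNF217, are shown as the 250 bases before the RefSeq start (build GRCh38.p14, 5′ to 3′ on the gene's strand); they are shown so that the motif content of a higher and of 2 lower genes can be set side by side. Capitals mark matches, on either strand, to 9 motifs searched. These were GGGCGG (the GC box), CCAAT (the CCAAT box), CCGGAAG (an ETS motif), TGACGTCA (the CRE), CACGTG (an E-box), TGCGCA (part of an NRF1 motif, with which it can overlap) and longer motifs known for ZNF143, NRF1 and YY1. ZNF692 lies at chr1:248859086-248859335 on the minus strand, ZNF33A at chr10:38010425-38010674 on the plus strand and ZNF217 at chr20:53593840-53594089 on the minus strand.
ZNF692: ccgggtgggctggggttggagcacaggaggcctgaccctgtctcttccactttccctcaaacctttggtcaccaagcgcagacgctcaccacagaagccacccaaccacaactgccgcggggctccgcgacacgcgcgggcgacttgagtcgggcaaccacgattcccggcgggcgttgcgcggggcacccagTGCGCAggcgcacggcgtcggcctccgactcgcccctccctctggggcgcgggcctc
ZNF33A: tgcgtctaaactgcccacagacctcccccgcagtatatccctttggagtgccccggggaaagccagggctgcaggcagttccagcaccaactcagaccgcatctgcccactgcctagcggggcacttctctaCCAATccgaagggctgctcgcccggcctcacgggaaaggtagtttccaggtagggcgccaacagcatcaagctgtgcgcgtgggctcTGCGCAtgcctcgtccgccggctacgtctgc
ZNF217: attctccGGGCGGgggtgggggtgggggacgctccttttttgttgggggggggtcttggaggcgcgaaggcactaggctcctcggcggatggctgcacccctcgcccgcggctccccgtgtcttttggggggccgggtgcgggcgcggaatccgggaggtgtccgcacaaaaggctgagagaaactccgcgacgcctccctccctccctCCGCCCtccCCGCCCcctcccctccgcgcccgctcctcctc

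The higher gene, ZNF217, held 3 GC boxes and none of the other motifs. The lower genes ZNF692 and ZNF33A held no GC box and 1 TGCGCA match each, with 1 CCAAT in ZNF33A. Over the members with a promoter, however, a GC box was found in 81.0% of the 21 called higher and in 62.5% of the 80 called lower, so most lower members hold one. Over the 127 members with a promoter in the table, 63.8% had a GC box and 37.8% a CCAAT, beside 69.1% and 36.2% of the promoters of 6683 genes at 5 FPKM. CCGGAAG was found in 29.9% of the members' promoters, beside 18.2% in that background and 8.82% of all 27305 promoters. It occurred in 33.3% of the 21 members called higher and 32.5% of the 80 called lower, so it did not separate the directions. TGACGTCA was present in 7.09% of the members, beside 3.23% of the background, while CACGTG was present in 5.51% beside 9.55%. TGCGCA stood at 7.09% beside 12.7%. The ZNF143, NRF1 and YY1 motifs were found in 3, 2 and 2 members (2.36%, 1.57% and 1.57%), beside 0.673%, 2.17% and 0.673% of the background.

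The proteins differ in ways that the choice of members did not use. A coding sequence was found in the GENCODE annotation for 145 of the 150 genes, and the other 5 are pseudogenes or lack one. C2H2 finger matches were found in 141 of the 145, with a median of 8 and a maximum of 35 fingers. The 4 without a match include ZNF703 and ZNF330, so the most strongly raised member is a ZNF gene by name with no classical finger found. A KRAB box was found in 53 members (36.6% of those coding), beside 208 of the 302 other coding numbered ZNF genes (68.9%). The genes expressed at 5 FPKM thus hold a smaller share of KRAB genes than the rest of the family.

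KRAB and other members moved to a similar extent. The 53 KRAB genes had a median difference of -0.30, with 7 called higher and 35 lower. The 92 genes without a KRAB match had a median of -0.27, with 17 called higher and 54 lower. Among those that reached 5 FPKM in the control and in a romidepsin library, the medians were -0.26 for 32 KRAB genes and -0.21 for 74 without a match. The 10 members with a SCAN domain match, a dimerization module found next to some fingers, had a median of -0.22 (1 higher and 6 lower). Finger number made little difference to the centre, with medians of -0.25 for 0 to 4 fingers, -0.30 for 5 to 9, -0.27 for 10 to 14 and -0.28 for 15 or more. None of these differences between classes was tested.

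Medians differed more between chromosomes. Chromosome 19 held 43 of the 150 members, of which 32 were called lower and 3 higher, with a median of -0.33. Of these, 11 are members through the control alone and 2 through romidepsin alone, and the other 30 had a median of -0.28. The 518 other genes of chromosome 19 at 5 FPKM had a median of -0.11 (187 higher, 253 lower). Chromosome 10 held 9 members with a median of -0.75, of which 8 were called lower and none higher, beside a median of -0.04 for 288 other genes there (101 higher, 122 lower). Of the 9, 5 are members through the control alone, so their direction was fixed by the choice; the other 4 had a median of -0.73. The 5 include ZNF33A and ZNF37A, the latter with 3.29 and 3.44 FPKM after romidepsin and 6.91 FPKM in the control. ZNF485, also of the 5, had 3.16 and 3.32 against 6.11 FPKM. The other 4 include ZNF32 (7.17 and 7.41 against 14.4 FPKM) and ZNF511 (17.1 and 16.3 against 33.4 FPKM). ZNF503, a relative of ZNF703 and also of the 4, was the exception on chromosome 10. It had 8.47 and 8.84 FPKM after romidepsin and 8.32 FPKM in the control. On chromosome 16 the 12 members were split, with 5 called higher and 5 lower (median -0.04, beside -0.21 for 358 other genes), but 3 entered through romidepsin alone and 1 through the control alone, and the other 8 had a median of -0.19. These chromosomes were singled out after the values were seen, and their differences were not tested.

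**Figure D3:**
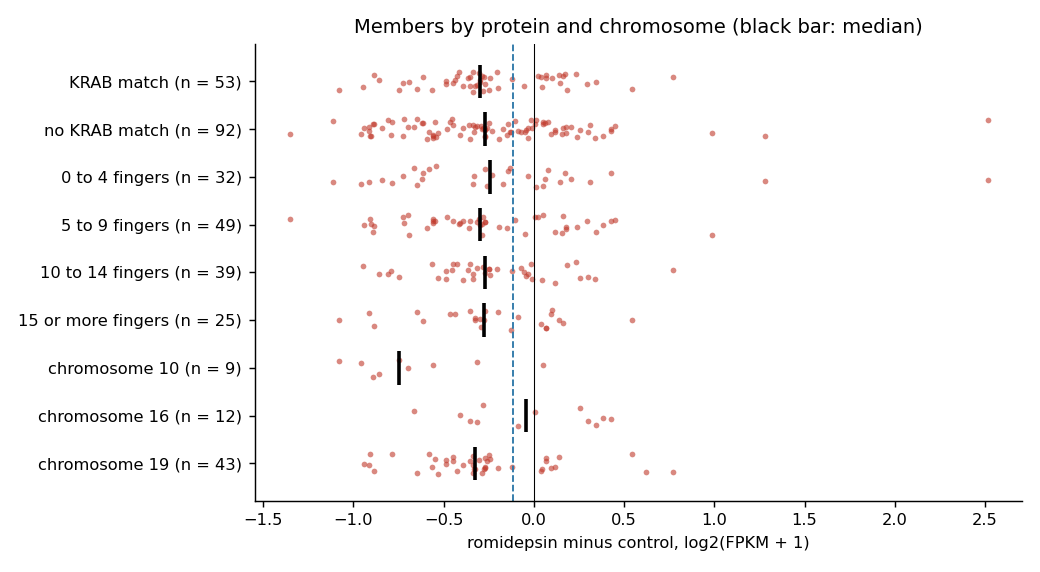
Mean difference of each member on the log2(FPKM + 1) scale, romidepsin minus control, by KRAB match, number of finger matches and chromosome; 1 point per gene, black bars for medians and a dashed line for all genes reaching 5 FPKM. The chromosome 10 median (-0.75) lies farthest to the left, while the KRAB and finger classes have medians between -0.30 and -0.25.

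Some members are direct neighbours among protein-coding genes (RefSeq, GRCh38.p14). There were 20 such pairs involving 37 genes, 8 of the pairs on chromosome 19. Both genes were called lower in 12 pairs and both higher in 1, while in the other 7 at least 1 gene was not called. As 92 of the 150 members were called lower, nothing particular to neighbours is read from this. ZNF33A and ZNF37A were at -1.08 and -0.86, ZNF485 and ZNF32 at -0.75 and -0.89, and ZNF48 and ZNF771 at 0.30 and 0.39. The choice of members fixed the direction of ZNF48 and ZNF771, members through romidepsin alone. It also fixed that of ZNF33A, ZNF37A and ZNF485, members through the control alone. Yet ZNF692 (-1.35) adjoins ZNF672, one of the most abundant members, which had 58.0 and 55.0 FPKM after romidepsin and 57.2 FPKM in the control. ZNF282 (-0.90) adjoins ZNF212 (0.17). Reads can be shared between near-identical paralogues in such clusters, so the values of close copies are uncertain.

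Among the 11 members with roles in RNA or ribosome biology, 6 were called lower and 1 higher (median -0.14). Beside this and the following role lists stand 48.5% called lower and 31.9% higher over all genes at 5 FPKM. ZNF593, whose yeast counterpart takes part in export of the large ribosomal subunit, had 42.7 and 42.9 FPKM after romidepsin and 67.6 FPKM in the control. ZNF598, a ubiquitin ligase that marks collided ribosomes, had 19.95 and 19.75 FPKM after romidepsin and 32.1 FPKM in the control. ZNF330, a nucleolar protein gene, had 23.6 and 25.4 FPKM after romidepsin and 41.2 FPKM in the control. In all these, both romidepsin libraries lay well below the control and close to each other. ZNF622, a ribosome maturation factor, did not follow, with 29.1 and 29.3 FPKM after romidepsin and 27.6 FPKM in the control. ZNF346, which binds double-stranded RNA, had 7.07 and 8.18 FPKM after romidepsin and 6.73 FPKM in the control, and neither was called. The 1 higher member was ZNF385A.

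The 11 chromatin and cofactor genes were all called, 6 higher and 5 lower (median 0.12), beside 80.4% called of all genes at 5 FPKM. Besides ZNF217, ZNF516, which also binds the LSD1 and CtBP corepressor, had 25.8 and 25.6 FPKM after romidepsin and 20.1 FPKM in the control. ZNF219, a finger repressor gene, had 10.8 and 10.6 FPKM after romidepsin and 8.89 FPKM in the control. On the lower side, ZNF282, which was first described as a binder of a retroviral promoter, had 8.57 and 8.70 FPKM after romidepsin and 17.0 FPKM in the control. ZNF532 is a partner of ZNF592 and ZNF687 in a chromatin reader complex. It had 2.74 and 2.71 FPKM after romidepsin and 5.52 FPKM in the control, so it is a member through the control alone. Its partners went the other way, ZNF592 with 10.2 and 10.2 FPKM after romidepsin and 8.93 FPKM in the control, and ZNF687 with 12.5 and 12.7 against 11.2 FPKM. ZNF644, which directs the methyltransferases G9a and GLP, had 10.6 and 11.01 FPKM after romidepsin and 16.4 FPKM in the control.

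Of 7 promoter-bound factors, 1 was called higher and 3 lower (median -0.15). ZNF281, a binder of GC-rich promoters, had 32.6 and 33.6 FPKM after romidepsin and 24.4 FPKM in the control. Its close relative ZNF148 stayed near the control, with 7.498 and 7.65 FPKM after romidepsin and 7.76 FPKM in the control. ZNF24, a SCAN protein, had 17.7 and 18.2 FPKM after romidepsin and 26.6 FPKM in the control. ZNF146, which consists almost only of fingers, had 35.9 and 36.7 against 52.9 FPKM. ZNF263, another SCAN protein, had 11.9 and 10.7 FPKM after romidepsin and 13.9 FPKM in the control, which was no longer called with equal library sums, after quantile normalization or with no filter. ZNF76, the paralogue of ZNF143, had 10.5 and 11.04 FPKM after romidepsin and 10.4 FPKM in the control. ZNF22, a short finger protein outside the role lists and among the 6 most abundant members, had 40.4 and 41.2 FPKM after romidepsin and 60.7 FPKM in the control.

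KRAB repressors with described targets were mostly too low to be members. Of 16 listed, 5 were members, 10 stayed under 5 FPKM and 1 shares a row with another gene. ZNF91, a repressor of SVA elements, peaked at 0.0085 FPKM and ZNF10, whose KRAB box is used in CRISPR interference, at 1.47 FPKM. Among the 5, 2 were called higher and 3 lower. The choice fixed the direction of ZNF175 and ZNF445, members through romidepsin alone, and of ZNF33A and ZNF85, members through the control alone. ZNF175, described as a restriction factor of HIV in macrophages, had 5.69 and 5.16 FPKM after romidepsin and 2.76 FPKM in the control, and is a member only through romidepsin. ZNF445, a guardian of imprinted regions, had 5.72 and 5.85 FPKM after romidepsin and 4.97 FPKM in the control, which was no longer called after quantile normalization or with no filter on low values. ZNF274, which recruits SETDB1 to the 3′ ends of ZNF genes, had 5.82 and 6.03 FPKM after romidepsin and 7.45 FPKM in the control, which was no longer called with equal library sums or with no filter. ZNF85 had 3.59 and 3.23 FPKM after romidepsin and 5.89 FPKM in the control.

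Of the 11 genes listed for blood and leukaemia, 6 were members, with 1 called higher (ZNF703) and 3 lower. The choice fixed the direction of ZNF703, a member through romidepsin alone, and of ZNF362 and ZNF296, members through the control alone. ZNF521, a factor of early haematopoietic progenitors, had 8.50 and 8.92 FPKM after romidepsin and 12.4 FPKM in the control. ZNF384, a fusion partner in acute lymphoblastic leukaemia, had 20.7 and 20.8 FPKM after romidepsin and 21.5 FPKM in the control. Its paralogue ZNF362, also found in such fusions, had 4.05 and 3.58 FPKM after romidepsin and 6.92 FPKM in the control, where both romidepsin libraries lay below the limit. ZNF296 likewise had 2.99 and 2.55 FPKM after romidepsin and 6.21 FPKM in the control. ZNF589, described in haematopoietic stem cells, had 10.2 and 11.3 FPKM after romidepsin and 9.63 FPKM in the control and was not called.

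The partners through which KRAB proteins repress were listed separately, whatever their level. Of 36 genes, 34 were tested, and limma called 21 lower and 7 higher (median -0.26), beside 41.8% lower and 34.7% higher over all genes tested. The p-values below set a single control library against the spread of the romidepsin pair, which may be technical. The 7 include ZNF445, which is also a member. All 34 reached 5 FPKM. Over all genes at that level, 48.5% were called lower and 31.9% higher, with a median of -0.12. After quantile normalization, fewer genes of the list were called lower. Given equal library sums, 12 were lower and 11 higher. TRIM28, the common corepressor, had 197.5 and 188.8 FPKM after romidepsin and 266.3 FPKM in the control (log2 difference -0.46, SE 0.04, limma adjusted p = 2.52e-05). SETDB1, the methyltransferase it recruits, had 10.2 and 9.66 FPKM after romidepsin and 17.55 FPKM in the control (-0.76, SE 0.06, limma adjusted p = 1.86e-05). TRIM28 stayed lower with equal library sums (-0.22) and after quantile normalization (-0.18), and so did SETDB1 (-0.54 and -0.73). SUV39H1, another H3K9 methyltransferase gene, had 11.95 and 12.25 FPKM after romidepsin and 18.9 FPKM in the control (limma adjusted p = 3.31e-05).

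The lowest and the highest difference in that list belonged to 2 alternative NuRD helicases. CHD3 had 20.6 and 20.7 FPKM after romidepsin and 42.8 FPKM in the control (-1.02, SE 0.04, limma adjusted p = 1.27e-06), the 1 gene of the list that was 2-fold lower. CHD4 had 81.3 and 82.0 FPKM after romidepsin and 53.5 FPKM in the control (0.60, SE 0.04, limma adjusted p = 5.59e-06). Both kept their direction given equal library sums (-0.78 and 0.84) and after quantile normalization (-0.88 and 0.79). On the deposited scale, the HUSH silencing system did not move in 1 direction. FAM208A (TASOR), its scaffold subunit, fell to 19.86 and 19.7 FPKM against 25.2 FPKM in the control (-0.33, limma adjusted p = 0.000387). MPHOSPH8, the subunit that reads H3K9 methylation, had 11.3 and 12.5 FPKM after romidepsin and 12.9 FPKM in the control and was not called. MORC2 rose slightly, to 11.3 and 11.3 FPKM against 9.54 FPKM in the control (limma adjusted p = 0.0088). PPHLN1 had 46.9 and 47.8 FPKM after romidepsin and 40.9 FPKM in the control (limma adjusted p = 0.00223). With equal library sums, FAM208A lay at -0.10 and was not called, MPHOSPH8 lay at 0.11, MORC2 at 0.44 and PPHLN1 at 0.44. After quantile normalization they lay at -0.24, -0.085, 0.21 and 0.36, so the split between these genes depended on the scale. With 1 control library, a difference between cultures and that of romidepsin cannot be told apart for any of these genes.

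**Figure D4:**
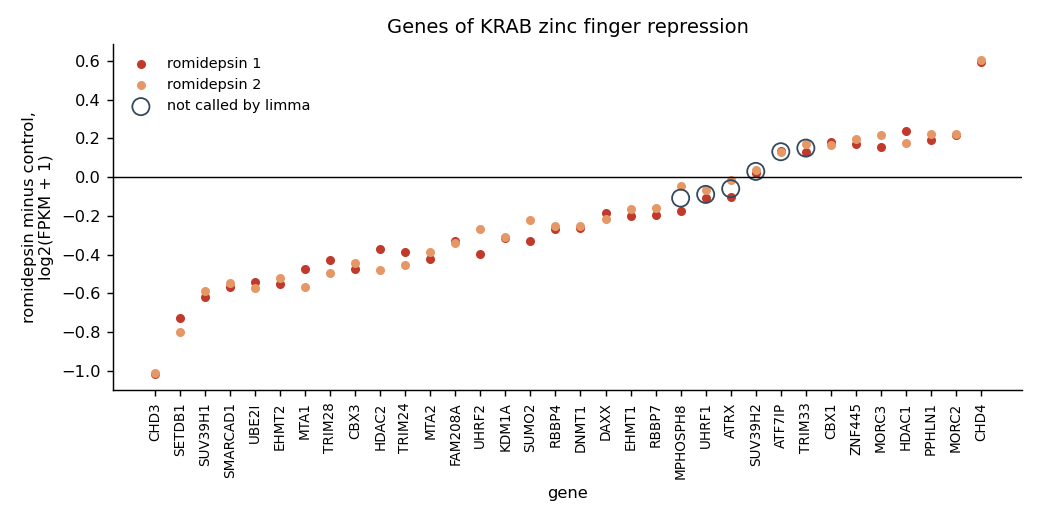
Difference of the 34 tested genes of KRAB repression on the log2(FPKM + 1) scale, romidepsin minus control, with 1 point per romidepsin library; larger open circles mark the 6 genes that limma did not call. CHD3 and SETDB1 lie lowest and CHD4 highest, and TRIM28 lies at -0.46.

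Other zinc finger families at the same level showed a centre near that of the numbered ZNF genes. Of 33 ZSCAN, ZKSCAN, ZFP and ZBTB genes at 5 FPKM, 6 were called higher and 18 lower, with a median of -0.25. Over all genes at 5 FPKM, 31.9% were called higher and 48.5% lower, and over all genes tested 34.7% and 41.8%. The 175 numbered ZNF genes from 1 to under 5 FPKM had a median of -0.16, with 22 called higher, 63 lower and by plain FPKM ratio 3 passed 2-fold upward and 8 downward in both libraries. Within the 150 members, the 75 with the higher mean FPKM had a median of -0.17 and the 75 with the lower mean had -0.32, but all 30 members through the control alone are in the lower set; among members at 5 FPKM in the control and in a romidepsin library, the medians were -0.20 for 74 and -0.27 for 35. No test of these differences between lists was made.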

How the data were processed

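The authors deposited 1 table of FPKM values per library, as the headers show. The submitters' processing notes name TopHat, Cufflinks, Cuffdiff and the build hg19, without a version or an annotation. Of 28837 rows, 1770 with no gene name (22.1% and 21.1% of the summed FPKM after romidepsin, 22.3% in the control) and 27 named by a number were left out, and rows of 1 symbol were summed. Genes with at least 1 FPKM in 1 library were fitted with limma 3.58.1 in R 4.3.3 on log2(FPKM + 1) with a mean-variance trend and Benjamini-Hochberg adjustment (threshold 0.05). Residual degrees of freedom numbered 1, which the romidepsin pair gives, and prior ones 6.06, and the control was assumed to vary like that pair. The fit was also run on simulated data with equal noise in all 3 libraries, which cannot show whether the control varies like the pair. The number of fragments per library follows from the step size of low FPKM values and GENCODE 29 transcript lengths, and intervals from it cover counting error only. GENCODE coding sequences (another build, so no coordinates are taken from it) were translated and searched for C2H2, KRAB and SCAN consensus matches, which miss divergent domains. Promoters and neighbours came from RefSeq. Members and lists were chosen with earlier results of these data known. Named members were those 2-fold apart in both romidepsin libraries, the 6 most abundant, the nearest to the 5 FPKM limit, those with the widest gap within the pair and, per role list, all or the 3 most changed each way; other names (ZNF592, ZNF687, ZNF212, ZNF91, ZNF10, ZNF74, ZNF16, ZNF587B, FAM208A, MPHOSPH8 and those of the chromosome and neighbour paragraphs) were chosen after values were seen. Alternatives were another pseudocount, other filters, other scalings, single-row symbols, each romidepsin library left out and other member limits. Of the listed cell type markers, 1 is not reported here.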

Additional observations from a re-analysis of the deposited data

How the results depend on the processing

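Members past the 2-fold rule on the lower side numbered 2, but 9 by plain FPKM ratio (chosen after seeing the data), 7 with a pseudocount of 0.1, 6 with quantile normalization and 1 with equal library sums, a mean of at least 5 FPKM as filter or as member limit, or a member limit of 10 FPKM. Leaving out either romidepsin library gave 2 to 3 members 2-fold higher and 3 lower. The 26 members called higher became 14 with no filter and 49 with equal library sums (scaling), and the 92 called lower became 65 and 50. The 10 FPKM limit left 61 members, of which 14 were called higher and 37 lower. The members' median of -0.27 became -0.31 with a pseudocount of 0.1, -0.25 with the mean of 5 FPKM as filter or limit, -0.062 with scaling and -0.34 with quantile normalization, and lay between -0.29 and -0.27 without either romidepsin library. Its distance from the median of all genes at 5 FPKM was -0.31 to -0.13 under the alternatives run. The median of KRAB members minus that of the others was -0.027, and -0.071 with quantile normalization. The repression list, with 7 genes higher and 21 lower, had 4 higher with no filter and, with scaling, 11 higher and 12 lower. The other zinc finger families, with 6 higher and 18 lower, had 3 higher with no filter and 13 higher and 11 lower with scaling. Of 345 values of the 38 named members under alternatives, 258 moved by less than the spread of the pair and 87 by more. Filters, single-row symbols and member limits cannot change a gene's difference, and leaving out a romidepsin library moves it only within the pair. The 258 are therefore no measure of stability, and only the other pseudocount and the scalings could move a value further. None of the called members among these 38 changed sign, and members outside the 38 were not compared in this way. Among named members not called, ZNF148 (-0.031), ZNF384 (-0.050) and ZNF672 (-0.017) became 0.18, 0.18 and 0.22 with equal library sums and were called higher. ZNF622, ZNF346, ZNF589 and ZNF76 were also called higher with equal library sums. No paired analysis was possible because the control has 1 library with no number. With 1 romidepsin library left out, limma had no residual degree of freedom and was not run. Near 5 FPKM, counting error alone gave an SD of 5.49% to 5.78%.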

Other observations

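Another 38 rows join a numbered ZNF gene with other genes and so could not be members. Of these, 21 reached 5 FPKM, with 2 called higher by limma, 14 lower and 5 not called, and a median of -0.23. Over all genes at 5 FPKM, 31.9% were called higher and 48.5% lower. The joint row of ECSIT and ZNF653 had 17.5 and 16.9 FPKM after romidepsin and 39.0 FPKM in the control, and that of ZNF700 and ZNF763 had 5.98 and 6.26 FPKM against 10.6 FPKM. The row of MIR632 and ZNF207, where ZNF207 encodes a spindle checkpoint partner, had 87.6 and 85.7 FPKM after romidepsin and 99.5 FPKM in the control. In the opposite direction, the row of ERV3-1, an endogenous retroviral envelope gene, and ZNF117 had 5.89 and 5.98 FPKM after romidepsin and 3.92 FPKM in the control. A joint row does not say which of its genes differed.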
